A study of Rattus norvegicus with 17 samples.

Results

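The enzymes examined here make wax esters and triglycerides, neutral lipids of the meibocyte, the lipid-filled secretory cell of the Meibomian gland (MG). They were chosen by name as 10 genes, Far1, Far2, Awat1, Awat2, Dgat1, Dgat2, Dgat2l6, Gpam, Agpat2 and Lpin1, out of 17251 genes in the deposited expression table. All 10 were listed in the table, and all 10 passed the filter on low values.

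RNA from the MG of 17 female rats on the Sprague-Dawley background, aged 10 to 12 weeks, was sequenced in 4 groups. Control WT (n = 4) and Control P1.hMR (n = 5) rats received no irradiation, and UVB WT (n = 3) and UVB P1.hMR (n = 5) rats received ultraviolet B light on the eyelids for 5 days. P1.hMR rats carry the human mineralocorticoid receptor gene NR3C2 under its proximal P1 promoter, which is active in every tissue where the receptor is normally made, so the transgene is not restricted to meibocytes. The comparisons ask how the gland responds to UVB, and whether the P1.hMR genotype alters its baseline or that response. Each rat gave 1 column of values. The methods count the UVB animals in eyes, and by the study's reporting form a rat's eyes, when both were used, were combined into a single sample.

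Values are in TPM, the RNA-seq unit of transcript abundance that is scaled for transcript length and for the total of each library, so levels of different genes can be set side by side within a rat. A gene was called changed when the limma test on log2(TPM + 1) gave a Benjamini-Hochberg adjusted p under 0.05 over 13105 genes and the fold change was at least 0.5 on the log2 scale. TPM keeps no record of the depth of each library. The methods give only a range of mapped reads over the libraries, so the counting error behind each value is not known exactly. The listed genes summed to between 80.4% and 84.1% of the full TPM scale per rat, and 12372 to 12737 genes reached 1 TPM. NR3C2 was listed at 0 in all WT rats and at 5.31 to 9.31 TPM in the P1.hMR rats, as the genotype labels say. The rat's own Nr3c2 had a mean of 16.2 TPM in Control WT rats (10.6 to 25.9 TPM) and 10.4 TPM in Control P1.hMR rats. Under UVB its means were 8.45 TPM in WT and 7.21 TPM in P1.hMR rats. The total of human and rat receptor RNA was not tested between genotypes. In dissected tissue, fewer cells of a type and less RNA per cell cannot be told apart, and this holds for every fall and rise below.

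Wax esters join a fatty alcohol to a fatty acid. Far1 and Far2 are fatty acyl-CoA reductases that make the alcohol, and Awat1 and Awat2 are acyl-CoA wax alcohol acyltransferases that attach the acid. Triglycerides are built on glycerol 3-phosphate: Gpam adds the first acyl chain, Agpat2 adds the next, Lpin1 removes the phosphate to give diacylglycerol, and Dgat1 or Dgat2 adds the last chain. Dgat1 belongs to a family of membrane-bound acyltransferases with the sterol acyltransferases, whereas Dgat2, Awat1, Awat2 and Dgat2l6 are relatives of one another. Meibum, the secretion that coats the tear film and slows its evaporation, is rich in wax esters and poor in triglycerides.

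Awat2, Dgat2l6 and Awat1 lie close together on the X chromosome. In the RefSeq annotation 3 protein-coding genes lie between Awat2 and Dgat2l6, and 0 lie between Dgat2l6 and Awat1. The 250 bases before each annotated start are printed because Awat2 was called lower and its neighbour Dgat2l6 higher after UVB (RefSeq, build GRCr8, each read 5′ to 3′ along its gene's own strand). Awat2 is at chrX:69530665-69530914 on the minus strand, Dgat2l6 at chrX:69654269-69654518 on the plus strand and Awat1 at chrX:69708036-69708285 on the plus strand. Capitals mark the letters CCAAT or their reverse complement ATTGG.
Awat2: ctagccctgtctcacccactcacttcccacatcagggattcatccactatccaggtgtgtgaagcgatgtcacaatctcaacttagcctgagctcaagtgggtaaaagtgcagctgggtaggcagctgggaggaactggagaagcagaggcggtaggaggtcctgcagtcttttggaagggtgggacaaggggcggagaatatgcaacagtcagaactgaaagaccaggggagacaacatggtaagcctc
Dgat2l6: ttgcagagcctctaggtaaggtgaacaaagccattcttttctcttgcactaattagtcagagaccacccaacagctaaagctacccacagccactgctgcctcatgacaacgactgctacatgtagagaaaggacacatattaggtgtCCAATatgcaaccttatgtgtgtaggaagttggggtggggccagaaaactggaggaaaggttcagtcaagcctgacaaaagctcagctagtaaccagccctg
Awat1: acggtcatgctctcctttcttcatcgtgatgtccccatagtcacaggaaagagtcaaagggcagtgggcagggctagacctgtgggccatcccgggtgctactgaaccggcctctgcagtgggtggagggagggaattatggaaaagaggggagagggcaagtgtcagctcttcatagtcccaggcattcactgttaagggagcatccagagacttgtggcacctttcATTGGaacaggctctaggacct

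The Dgat2l6 window holds CCAAT at bases -102 to -98 before the start, the Awat1 window holds ATTGG at bases -22 to -18, and the Awat2 window holds neither. The windows are 53.6% (Awat2), 47.6% (Dgat2l6) and 54.8% (Awat1) G or C. RefSeq windows were matched for 8 of the 10 genes, and those of Dgat1 and Dgat2 were not analysed here. CCAAT was present, on either strand, in 5 of the 8 (Awat1, Dgat2l6, Far1, Gpam and Lpin1) and in 34.0% of 33469 windows of the same length. AGAACA, a core element of corticosteroid receptor binding, was present in Lpin1 alone among the 8, at bases -187 to -182, and in 17.5% of all windows. AGGTCA, a core element shared by many other nuclear receptors, was in 0 of the 8 and in 14.1% of all windows. TCACNCCAC, a sterol regulatory element, was in 0 of the 8 and in 0.974% of all windows. CACGTG, an E box, was in 0 of the 8 and in 5.59% of all windows, and TATAAA was in 0 of the 8 and in 12.9%. The full corticosteroid receptor palindrome and the direct repeat bound by PPAR receptors were in 0 of the 8, and in 0.012% and 0.0508% of all windows. These are matches of letters only. The palindrome contains AGAACA, the direct repeat contains AGGTCA, and the E box reads the same on both strands.

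Levels differed widely among the 10 genes in the unirradiated gland. Awat2 stood far above the others with a mean of 10970 TPM over the 9 control rats, which was 1.34% of the whole table and 74.1% of the 10 genes' summed TPM. It held rank 2 among all genes in each of the 9 control rats. Far2 followed at 1529 ± 261 TPM (SD) and rank 69 by mean, Awat1 at 960 ± 82.4 TPM and rank 123, Far1 at 771 ± 72.9 TPM and rank 153, and Dgat2 at 343 ± 34.5 TPM and rank 365. Gpam (114 ± 13.4 TPM) and Agpat2 (89.3 ± 12.4 TPM) came next. Dgat1 (16.1 ± 1.41 TPM), Lpin1 (8.11 ± 1.48 TPM) and Dgat2l6 (3.02 ± 1.34 TPM) were the lowest. Ranges of neighbours in this order overlapped for Awat1 and Far1, and for Gpam and Agpat2, over the 9 control rats. The Far and Awat genes thus filled the top of the order and the glycerolipid enzymes the lower part.

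**Figure D1:**
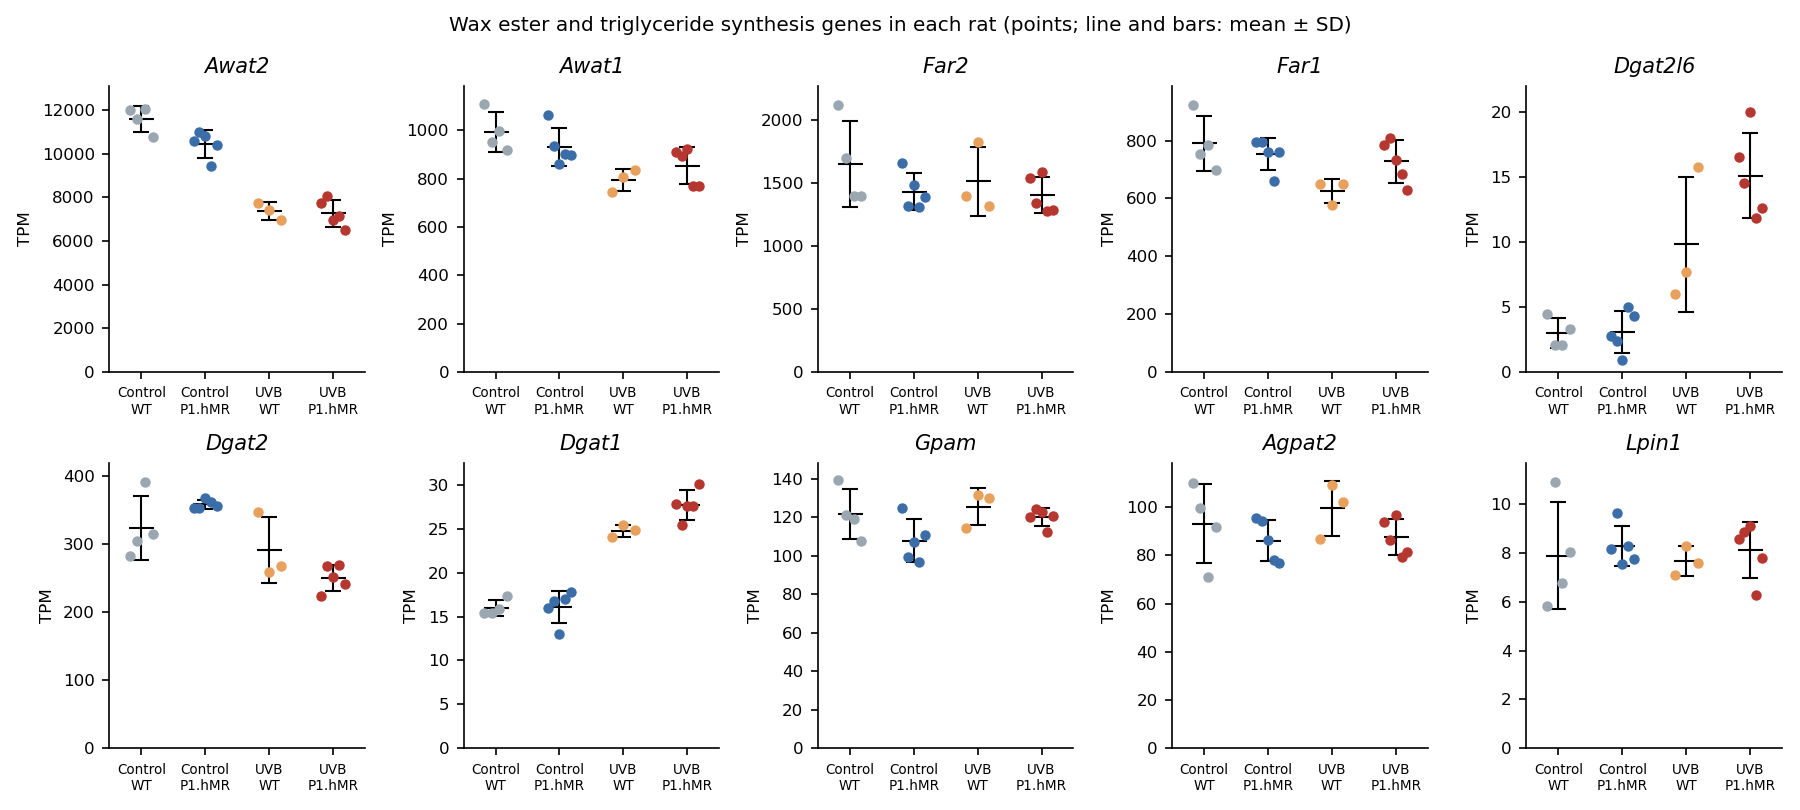
TPM of each of the 10 genes (y axis, from 0, a separate scale per gene) in each rat of the 4 groups (x axis), with the group mean and SD as a line and bars. Awat2 lies between 9428 and 12062 TPM in control rats and between 6495 and 8048 TPM in UVB rats, while all UVB points of Dgat1 and Dgat2l6 lie above all control points.

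After UVB, 3 of the 10 genes were called in WT rats and 4 of the 10 in P1.hMR rats. In WT rats 2 were higher (Dgat1 and Dgat2l6) and 1 was lower (Awat2), where 3.92% of all 13105 genes were called higher and 3.98% lower. In P1.hMR rats 2 were higher (Dgat1 and Dgat2l6) and 2 lower (Awat2 and Dgat2), where 5.05% of all genes were called higher and 5.71% lower. For the response averaged over both genotypes, 2 were higher (Dgat1 and Dgat2l6) and 1 lower (Awat2), against 4.6% and 4.88% of all genes. The median log2 fold change of the 10 genes was -0.06 in WT rats and -0.03 in P1.hMR rats, and that of all genes was 0.01 and -0.02. The ranges of the compared groups did not overlap for 5 of the 10 genes in WT rats (26.6% of all genes) and for 4 of the 10 in P1.hMR rats (27.2% of all genes). Between all 8 UVB rats and all 9 control rats they did not overlap for 3 of the 10 (Awat2, Dgat1 and Dgat2l6), against 10.8% of all genes.

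**Figure D2:**
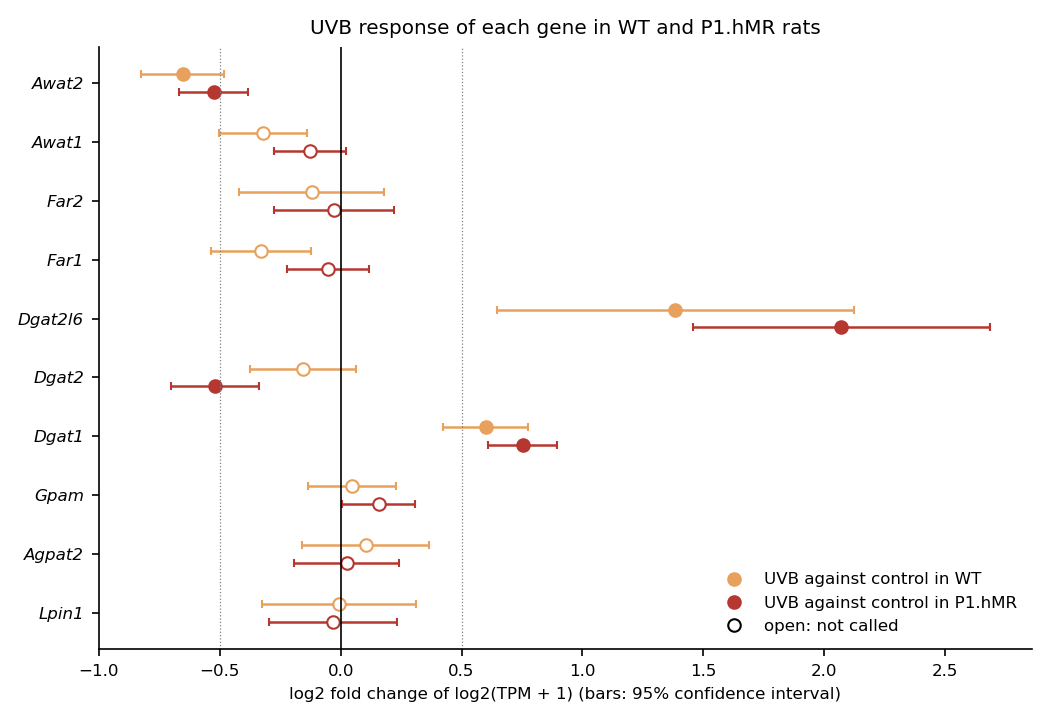
Log2 fold change on the log2(TPM + 1) scale (x axis) after UVB for each gene (y axis) in WT and P1.hMR rats, with bars for the 95% confidence interval, filled points for called changes and dotted lines at 0.5 in each direction. Awat2 is to the left of 0 and Dgat1 and Dgat2l6 are to the right in both genotypes, and Dgat2 is filled in P1.hMR rats (-0.52) and open in WT rats (-0.15).

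Of the reductases, Far1 was lower after UVB in WT rats, though by less than the fold threshold. Far1 was at 925, 754, 785 and 700 TPM in Control WT rats and at 651, 579 and 651 TPM in UVB WT rats. These ranges did not overlap. The log2 fold change was -0.33 (SE 0.10, limma adjusted p = 0.0237). In P1.hMR rats Far1 was at 795, 795, 761, 662 and 759 TPM without UVB and at 786, 809, 732, 683 and 631 TPM with it, and the groups overlapped (log2 fold change -0.05, limma adjusted p = 0.627). Far2, the more abundant reductase in every rat, ranged from 1307 to 2117 TPM in control rats and from 1277 to 1821 TPM in UVB rats. Its log2 fold change was -0.12 for WT rats (95% interval -0.42 to 0.18, limma adjusted p = 0.585) and -0.03 for P1.hMR rats (-0.28 to 0.22, limma adjusted p = 0.871). Far2 exceeded Far1 by 1.98 ± 0.21 times (SD) over the control rats and 2.12 ± 0.444 times over the UVB rats, with UVB WT rat 2 highest at 3.15.

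Awat2, the dominant wax synthase, fell in both genotypes. It was at 12001, 11609, 12062 and 10767 TPM in unirradiated WT rats and at 7744, 7434 and 6961 TPM in the UVB WT rats. It was at 10602, 11012, 10838, 9428 and 10393 TPM in unirradiated P1.hMR rats and at 7728, 8048, 6967, 7164 and 6495 TPM in the UVB P1.hMR rats. Every UVB rat was below every control rat of either genotype. The mean decreased by 36.4% in WT rats (log2 fold change -0.65, SE 0.08, limma adjusted p = 0.000115) and decreased by 30.4% in P1.hMR rats (log2 fold change -0.52, SE 0.07, limma adjusted p = 2.54e-05). Awat2 remained among the 5 most abundant genes in every UVB rat, at rank 2 to 5, and its share of the table was 0.888% there. The fold threshold was close in P1.hMR rats: without UVB P1.hMR rat 5 the log2 fold change was -0.48. Under quantile normalization, which sets the values at the top ranks equal between rats, the change was -0.40 for WT rats (limma adjusted p = 0.0401) and -0.36 for P1.hMR rats (limma adjusted p = 0.0147), short of the fold threshold.

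Awat1, the sister wax synthase, moved less. It was at 1110, 953, 1000 and 918 TPM in Control WT rats and at 744, 805 and 835 TPM in UVB WT rats, without overlap. The log2 fold change was -0.32 (SE 0.09, limma adjusted p = 0.0142), short of the fold threshold. In P1.hMR rats the values were 859 to 1063 TPM without and 770 to 922 TPM with UVB, and the log2 fold change was -0.13 (95% interval -0.28 to 0.02, limma adjusted p = 0.17). The ratio of Awat2 to Awat1 was 11.5 ± 0.87 (SD, range 9.97 to 12.6) over the control rats and 8.84 ± 0.849 (7.56 to 10.4) over the UVB rats. The groups overlapped in this ratio through UVB WT rat 1, which had the highest value among UVB rats. Ratios are given as descriptions and were not tested.

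Dgat2l6, a little-studied relative of Dgat2 and the Awat genes, rose from a very low level. It was at 4.42, 2.1, 2.03 and 3.32 TPM in Control WT rats and at 6.01, 7.65 and 15.8 TPM in UVB WT rats. It was at 2.77, 2.35, 0.9, 5.01 and 4.28 TPM in Control P1.hMR rats and at 16.5, 14.5, 20.0, 11.9 and 12.6 TPM in UVB P1.hMR rats. The highest control value, 5.01 TPM, was below the lowest UVB value, 6.01 TPM. Mean TPM was 3.3 times higher in WT rats (log2 fold change 1.38, SE 0.35, limma adjusted p = 0.0106) and 4.93 times higher in P1.hMR rats (log2 fold change 2.07, SE 0.29, limma adjusted p = 5.3e-05). On the log2(TPM + 1) scale these values understate the change of a gene this low. The call in WT rats rested on UVB WT rat 3: without it the log2 fold change was 1.02 and the limma adjusted p was 0.0624. Dgat2l6 was still only 1.55% of Awat1 in UVB rats (0.315% in control rats). Reads shared among Awat1, Awat2, Dgat2 and Dgat2l6, which are related in sequence, were divided between genes by the authors' estimation, and how many were shared is not known here.

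Of the diacylglycerol acyltransferases, which commit diacylglycerol to triglyceride, Dgat1 rose in both genotypes and Dgat2 fell in P1.hMR rats. Dgat1 was at 15.4, 15.4, 15.9 and 17.3 TPM in Control WT rats and at 24.0, 25.4 and 24.8 TPM in UVB WT rats. It was at 16, 16.8, 13.0, 16.96 and 17.7 TPM in Control P1.hMR rats and at 27.9, 25.4, 27.5, 27.6 and 30.1 TPM in UVB P1.hMR rats. All 8 UVB rats were above all 9 control rats. Mean Dgat1 was 54.6% higher in WT rats (log2 fold change 0.60, SE 0.08, limma adjusted p = 0.000215) and 72.1% higher in P1.hMR rats (0.75, SE 0.07, limma adjusted p = 1.48e-06). At the same thresholds Dgat1 was called in each of 27 alternative fits per genotype, counting those with a rat left out.

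Dgat2, the far more abundant enzyme of the pair, fell in P1.hMR rats. It was at 283, 304, 391 and 315 TPM in Control WT rats and at 346, 259 and 267 TPM in UVB WT rats, and these groups overlapped through UVB WT rat 1. It was at 353, 352, 368, 362 and 356 TPM in Control P1.hMR rats, the tightest of the groups, and at 223, 267, 251, 269 and 240 TPM in UVB P1.hMR rats, all below every Control P1.hMR rat. The log2 fold change was -0.15 in WT rats (95% interval -0.37 to 0.06, limma adjusted p = 0.306) and -0.52 in P1.hMR rats (-0.70 to -0.34, limma adjusted p = 0.000206). Averaged over genotypes it was -0.34 (limma adjusted p = 0.000685), short of the fold threshold. The call in P1.hMR rats was close to that threshold, at -0.48 without UVB P1.hMR rat 1. The test of the difference between genotypes gave -0.37 (95% interval -0.65 to -0.08) with an unadjusted p of 0.0149 and a limma adjusted p of 0.704, so the responses were not shown to differ over all genes.

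Set against each other, Dgat1 amounted to 4.73 ± 0.631% of Dgat2 TPM (SD, range 3.55 to 5.51%) over the control rats and 10.2 ± 1.82% (6.93 to 12.5%) over the UVB rats. These ranges did not overlap. Dgat2 stayed the more abundant of the pair in every rat. The summed TPM of the 10 genes was 14800 ± 1119 (SD) over the control rats and 10810 ± 654 over the UVB rats, or 1.80% and 1.31% of the table, and Awat2 made up 74.1% and 67.7% of that sum.

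**Figure D3:**
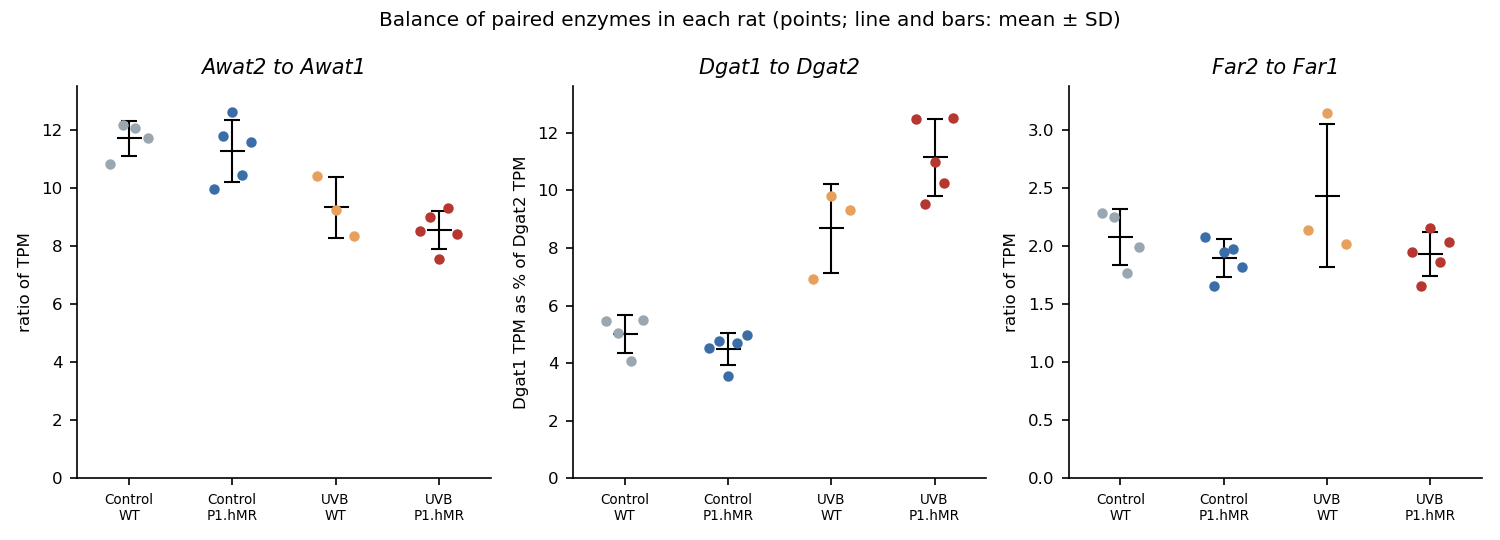
Awat2 to Awat1 ratio, Dgat1 as a percent of Dgat2, and Far2 to Far1 ratio (y axes, from 0) in each rat of the 4 groups (x axis), with the group mean and SD as a line and bars. Dgat1 as a percent of Dgat2 is 3.55 to 5.51% in control rats and 6.93 to 12.5% in UVB rats, and the Far2 to Far1 ratio overlaps between all groups apart from UVB WT rat 2 at 3.15.

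The upstream steps of triglyceride synthesis showed no called change. Gpam, the mitochondrial glycerol-3-phosphate acyltransferase, ranged from 96.9 to 139 TPM in control rats and from 112 to 132 TPM in UVB rats. Its log2 fold change was 0.05 for WT (95% interval -0.14 to 0.23, limma adjusted p = 0.737) and 0.16 for P1.hMR rats (0.01 to 0.31, limma adjusted p = 0.0942). Agpat2, the acyltransferase of the next step, whose loss causes lipodystrophy in people, ranged from 71.2 to 110 TPM without and from 79.4 to 109 TPM with UVB. Its log2 fold change was 0.10 in WT (-0.16 to 0.37, limma adjusted p = 0.589) and 0.03 in P1.hMR rats (-0.19 to 0.24, limma adjusted p = 0.865). Lpin1, a phosphatidate phosphatase that also acts as a transcriptional coactivator, ranged from 5.83 to 10.9 TPM without and from 6.27 to 9.11 TPM with UVB. Its log2 fold change was -0.01 in WT (-0.33 to 0.31, limma adjusted p = 0.982) and -0.03 in P1.hMR rats (-0.30 to 0.23, limma adjusted p = 0.867). The intervals of all 3 genes lay within 0.5 of 0 on the log2 scale in both genotypes.

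The P1.hMR genotype gave no called difference in any of the 10 genes. Without UVB, limma called 0 of the 10 (0.00763% of all genes, which is 1 gene), and 2 had an unadjusted p under 0.05: Gpam, 11.3% lower in P1.hMR rats, and Awat2, for which the log2 difference was -0.15 (95% interval -0.30 to -0.00053). The limma adjusted p was 0.998 for both, and that comparison gave an unadjusted p under 0.05 for 528 of the 13105 genes. Under UVB, limma called 0 of the 10 (0.0229% of all genes, which is 3 genes), and 1 had an unadjusted p under 0.05: Far1, with a log2 difference of 0.21 (limma adjusted p = 0.448). Dgat1 ranges of the irradiated genotypes barely separated: the highest WT rat was at 25.39 TPM and the lowest P1.hMR rat at 25.41 TPM. The P1.hMR mean was 12.0% above the WT mean (log2 difference 0.16, 95% interval -0.01 to 0.32, limma adjusted p = 0.515), and the interval included 0. How many of all genes separated in this comparison was not counted. Dgat2l6 was at 6.01 to 15.8 TPM in UVB WT and 11.9 to 20.0 TPM in UVB P1.hMR rats (log2 difference 0.66, 95% interval -0.05 to 1.36, limma adjusted p = 0.517), and Awat2 overlapped fully (log2 difference -0.02).

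For the difference of the UVB responses between genotypes, limma called 0 of the 10 (0.0% of all genes), and 2 had an unadjusted p under 0.05. These were Dgat2, described above, and Far1, whose difference was 0.28 (95% interval 0.01 to 0.54, limma adjusted p = 0.711). At that unadjusted level 907 of the 13105 genes passed. The differences for Dgat2l6 (0.69, 95% interval -0.27 to 1.65), Awat1 (0.20, -0.04 to 0.43), Dgat1 (0.15, -0.07 to 0.38) and Awat2 (0.13, -0.09 to 0.35) had intervals that included 0. In the alternative fits of these 3 comparisons 0 of the 10 genes were called too.

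The rest of these pathways was followed in 6 fixed lists, to be read against the shares of all genes called per direction (3.92% higher and 3.98% lower in WT, 5.05% and 5.71% in P1.hMR rats) or at an unadjusted p under 0.05 (35.3% in WT and 47.6% in P1.hMR rats). Of 7 genes close to wax and sterol ester synthesis, 1 rose and 1 fell in each genotype. Dbi, the acyl-CoA-binding protein that ferries activated fatty acids, had a mean of 3839 TPM in Control WT and 2038 TPM in UVB WT rats (log2 fold change -0.93, limma adjusted p = 0.000551), and of 3849 and 1660 TPM in P1.hMR rats (-1.21, limma adjusted p = 3.94e-06). Elovl3, an elongase of very long saturated and monounsaturated acyl chains, had a mean of 935 and 1363 TPM in WT (0.55, limma adjusted p = 0.0077) and of 870 and 1477 TPM in P1.hMR rats (0.77, limma adjusted p = 5.48e-05). Soat1, which esterifies cholesterol, was at a mean of 1428 TPM in Control WT and 1539 TPM in UVB WT rats and was not called (0.11 in WT and 0.22 in P1.hMR rats).

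Among the acyltransferases of the glycerol phosphate and monoacylglycerol routes, 8 of 11 were tested. In WT rats 1 rose, Agpat1, an enzyme of the same step as Agpat2 (0.61, limma adjusted p = 0.00111), and 1 fell, Lpgat1, an acyltransferase of lysophospholipids (-0.83, limma adjusted p = 0.000584). In P1.hMR rats 0 rose and Lpgat1 fell (-0.74, limma adjusted p = 8.03e-05), and Agpat1 was at 0.14 (limma adjusted p = 0.208). Mogat1, Mogat2 and Gpat2 were below the filter, with group means of at most 0.57 TPM.

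Of 8 phosphatidate phosphatases and genes of glycerol phosphate supply, 0 were called in WT rats and 1 rose in P1.hMR rats: Gk, glycerol kinase (0.53, limma adjusted p = 6.66e-05, and 0.27 in WT rats). For the 0 in WT rats, 3 of the 8 had an unadjusted p under 0.05 by limma. Lpin2, a relative of Lpin1, stayed short of the fold threshold at -0.33 for WT (limma adjusted p = 0.00316) and -0.44 for P1.hMR rats (limma adjusted p = 2.58e-05). Of 7 tested ether lipid genes (8 names), 0 were called in WT rats, where 2 had an unadjusted p under 0.05, and 1 rose in P1.hMR rats: Selenoi, an ethanolamine phosphotransferase (0.92, limma adjusted p = 0.000304, and 0.36 in WT rats, limma adjusted p = 0.202).

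Lipid breakdown was followed through 6 tested genes of neutral lipid hydrolysis (8 names). In WT rats G0s2, an inhibitor of the main triglyceride lipase, rose (0.52, limma adjusted p = 0.0199, and 0.27 in P1.hMR rats, limma adjusted p = 0.0864) and 0 fell. In P1.hMR rats Pnpla3, a lipid droplet protein related to that lipase, fell from a mean of 123 to 62.1 TPM (-1.002, limma adjusted p = 0.000105, and -0.14 in WT rats, limma adjusted p = 0.624) and 0 rose. Pnpla2 and Hilpda were not analysed here. Of 7 tested genes of lipid droplet growth and lipin partners (8 names), Cidec, a droplet fusion protein of adipocytes, fell in WT rats (-1.03, limma adjusted p = 0.0233) from a mean of 2.52 to 0.6 TPM. In P1.hMR rats Cidec had means of 1.8 and 0.734 TPM (-0.64, limma adjusted p = 0.0532), and averaged over genotypes it was called at -0.84. In P1.hMR rats 0 of the 7 were called, and 3 had an unadjusted p under 0.05. None of these genes was called for a difference in response between genotypes. Cidea, its abundant relative in meibocytes, had a mean of 2405 TPM in Control WT and 1710 TPM in UVB WT rats and stayed short of the fold threshold at -0.49 in WT and -0.39 in P1.hMR rats. No list had more than 1 gene called in either direction in a genotype.

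**Figure D4:**
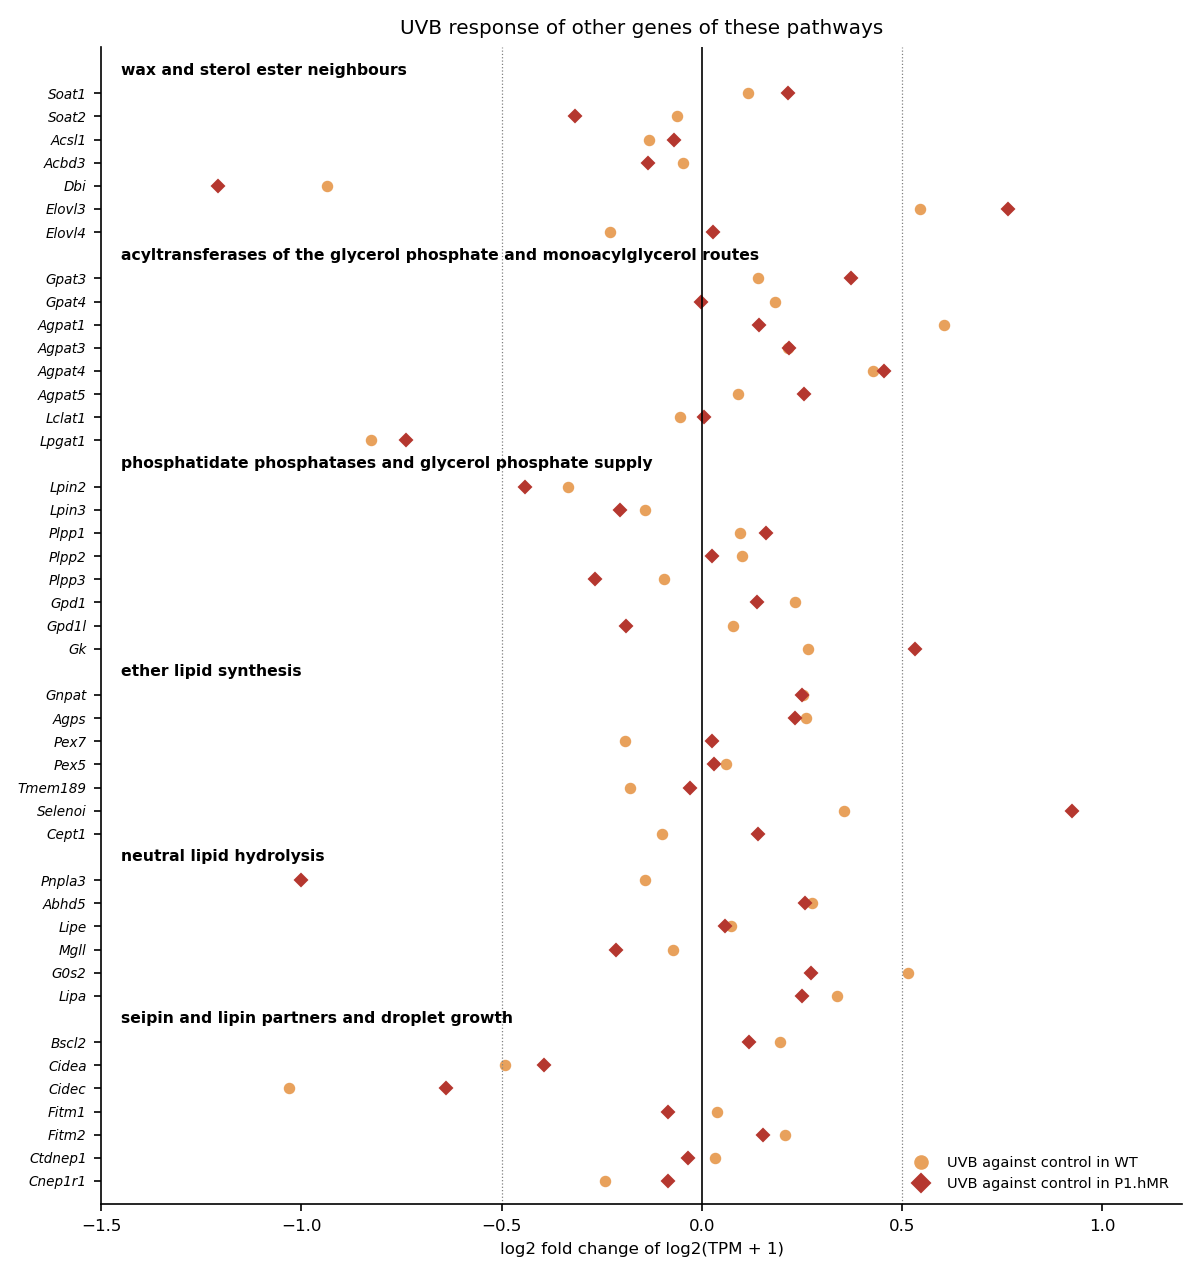
Log2 fold change on the log2(TPM + 1) scale (x axis) after UVB of the tested genes of the 6 other lists (y axis), with circles for WT and diamonds for P1.hMR rats and dotted lines at 0.5 in each direction. Dbi, Lpgat1 and Cidec lie to the left of -0.5 and Elovl3 to the right of 0.5 in both genotypes, while most genes lie between the dotted lines.

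The labelled tissue was checked against marker lists. All 12 meibocyte and sebocyte markers were present, with a summed level of 35830 to 43870 TPM in Control WT, 36530 to 41220 TPM in Control P1.hMR, 36730 to 43420 TPM in UVB WT and 35390 to 40860 TPM in UVB P1.hMR rats. That sum overlapped between all groups, including UVB against control. It came mostly from Scd, with group means of 25790 to 27690 TPM, so it says little about the other markers. Of the 12, 2 fell in each genotype, and 3 rose in WT and 2 in P1.hMR rats. Scd4 had means of 1564 TPM in Control WT and 675 TPM in UVB WT rats, whereas Fabp5 had means of 3023 and 4413 TPM. Adipocytes also make Dgat1, Dgat2, Gpam, Agpat2 and Lpin1. All 8 adipocyte markers were listed, their sum was 331 to 371 TPM in Control WT, 345 to 421 TPM in Control P1.hMR, 321 to 425 TPM in UVB WT and 356 to 400 TPM in UVB P1.hMR rats, and it came mostly from Thrsp and Cfd. Of the defining markers, Adipoq and Plin1 had lower means after UVB in both genotypes, and Lep and Adrb3 were close to 0. Adipoq had means of 8.77 TPM without and 3.24 TPM with UVB in WT rats, and of 7.20 and 5.00 TPM in P1.hMR rats. Plin1 had means of 1.7 and 0.547 TPM in WT rats, and of 1.61 and 0.666 TPM in P1.hMR rats. Of the 6 adipocyte markers tested, 1 was called lower in WT rats (Cidec) and 1 higher in P1.hMR rats, Retn, with means of 2.2 TPM without and 14.0 TPM with UVB (1.71 and 4.57 TPM in WT rats).

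Markers of other cell types were also called after UVB, where 3.92% to 5.71% of all genes were called per direction and genotype. Of 7 macrophage markers, 4 rose in each genotype and 0 fell, and their summed level was 73.0 to 134 TPM in control rats and 106 to 209 TPM in UVB rats. The rise was not shared by all 7. Cd68 was not called and had means of 39.8 TPM without and 30.1 TPM with UVB in WT rats. Its means in P1.hMR rats were 37.9 and 30.7 TPM. Of 6 mitosis genes, 4 rose in each genotype and 0 fell, with sums of 79.0 to 108 TPM in control rats and 114 to 183 TPM in UVB rats. Of 6 hair follicle keratins, 5 fell in WT and 3 in P1.hMR rats. Their sums were 455 to 926 TPM in control rats and 227 to 578 TPM in UVB rats. Of 4 fibroblast markers, 3 rose in each genotype, and Col1a1 fell in P1.hMR rats from a mean of 575 to 320 TPM and was not called in WT rats (491 and 353 TPM). Skeletal muscle markers overlapped between all groups in their sum, at 1661 to 3808 TPM, but of 8 tested 1 fell in WT (Actn3) and 2 in P1.hMR rats (Actn3 and Mb). Actn3 had means of 71.9 and 21.4 TPM in WT and 69.7 and 27.9 TPM in P1.hMR rats. Of 2 goblet cell markers tested, 0 were called in WT rats, where 1 had an unadjusted p under 0.05, and 2 fell in P1.hMR rats, with sums of 25.0 to 74.9 TPM without and 2.69 to 15.7 TPM with UVB. The sums in WT rats were 18.56 to 51.75 TPM without and 6.74 to 22.05 TPM with UVB. Of 3 melanocyte markers, 3 fell in WT and 0 were called in P1.hMR rats, where 2 had an unadjusted p under 0.05. The part of these cell types in the changes of Awat2, Dgat1, Dgat2 and Dgat2l6 was not tested. When TPM was rescaled without the muscle, hair follicle and keratin genes, the same calls were made among the 10 genes.

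Whether the 10 genes varied together between rats of one group was tested next, and no pair passed. Over all 17 rats, with the group mean removed, 45 pairs of genes were compared and 27 had a positive correlation. After Benjamini-Hochberg adjustment 0 pairs passed 0.05 by Pearson's r in a two-sided permutation test within groups, and 10 pairs had an unadjusted p under 0.05. Awat2 and Far1 gave r = 0.77 (permutation p = 0.00172, adjusted 0.0502) and Spearman's rho = 0.73 (permutation p = 0.00529, adjusted 0.0873), with r = 0.62 without the 2 rats farthest in Awat2, 0.81 within control rats and 0.74 within UVB rats. Dgat2 and Agpat2 gave r = -0.79 (permutation p = 0.00381, adjusted 0.0502) and rho = -0.68 (permutation p = 0.00776, adjusted 0.0873), with r = -0.60 without the 2 farthest rats, -0.87 within control rats and -0.75 within UVB rats. The same adjusted value of 0.0502 was reached by Awat1 and Gpam (r = 0.72, permutation p = 0.00301) and by Far2 and Gpam (r = 0.73, permutation p = 0.00446). Without the 2 farthest rats r was 0.50 for Awat1 and Gpam and 0.62 for Far2 and Gpam. Awat1 and Awat2 were only loosely related (r = 0.35, permutation p = 0.236, adjusted 0.473, and rho = 0.33, permutation p = 0.269, adjusted 0.484), with r = 0.34 without the 2 farthest rats.

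The genes most like Awat2 were sought among 9935 genes with a mean of at least 5 TPM, by Pearson's r over the 17 rats with group means removed, as a description. They were Ppp4r4 (0.89), Eif4e (0.84), Ap3s1 (0.82), Sec62 (0.81) and Gpbp1 (0.81). Ppp4r4 also fell after UVB, with a log2 fold change of -1.02 for WT (limma adjusted p = 6.13e-05) and -0.93 for P1.hMR rats (limma adjusted p = 5.07e-06), whereas the other 4 were between -0.10 and 0.20 in both genotypes. The genes most like Dgat2 were Scpep1 (0.86), Col8a2 (0.84), Oaf (0.83), Pdzk1ip1 (0.82) and Ccl21 (0.82). Pdzk1ip1 fell in both genotypes (-0.67 and -0.81), and Col8a2 fell in P1.hMR rats (-0.69, limma adjusted p = 0.000131) and was at -0.33 in WT rats. Ccl21 went the other way and was called higher in WT rats (0.63, limma adjusted p = 0.0266). Its P1.hMR value was 0.29 (limma adjusted p = 0.161). Oaf was also above 0, at 0.30 for WT (limma adjusted p = 0.0991) and 0.18 for P1.hMR (limma adjusted p = 0.173). Scpep1 was at -0.06 for WT and -0.25 for P1.hMR, short of the fold threshold.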

How the data were processed

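The authors dissected the MG, extracted total RNA, checked the reads with FastQC, aligned them with STAR to the rn7 rat genome and estimated gene levels with RSEM. The submitters' processing notes also list Trimmomatic, DRAGEN and Picard. The deposited table holds TPM values, estimated by the authors, with decimal commas and 1 column per rat, and 0 columns were left unmapped. RSEM divides reads shared by related genes by estimation. As TPM are not counts, log2(TPM + 1) was tested with limma 3.58.1 in R 4.3.3 (moderated test with a variance trend) in 1 model of 4 group means, over the 13105 genes that reached 1 TPM in 3 or more rats. Called genes had a Benjamini-Hochberg adjusted p under 0.05 and a log2 fold change of at least 0.5 in size, as in the study. The limma p-values set a difference between group means against the spread between rats of a group, moderated over all genes tested. Correlations used 100000 permutations of rats within groups. Descriptions and figures were made with Python 3.11.15, pandas 2.3.3, numpy 2.4.6 and matplotlib 3.10.9. The scripts' tests were tested on simulated data.

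The members and lists were chosen with earlier results of these data known. The text names all 10 members and up to 4 called genes of each list by size of change. It also names the 5 genes most correlated with Awat2 and with Dgat2. Soat1, Lpin2, Cidea, the Mogat genes, Gpat2 and the single markers of meibocytes and other cell types were named after their values were seen. Alternatives were another pseudocount (0.1), no filter or a mean of at least 5 TPM, 3 other scalings, only the groups compared, no variance trend, sample weights, a replicate block, other fold thresholds and each rat left out.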

Additional observations from a re-analysis of the deposited data

Results flagged for a closer look

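Of the 30 combinations of gene and group large enough to test, 1 held a rat far from the others by Dixon's criterion: Far1 was at 662 TPM in Control P1.hMR rat 4, below the other rats of that group at 759 to 795 TPM. Chance alone marks about 1 in 20 such groups. Awat2 was also lowest in that rat among the Control P1.hMR rats, at 9428 TPM.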

How the results depend on the processing

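TPM give no depth for each rat, so precision rests on 3 to 5 rats per group. With no fold threshold, 5 of the 10 genes were called under UVB in WT rats and 6 for the averaged response. Of all 13105 genes, 2820 and 6192 were then called. With a fold threshold of 1, 1 of the 10 was called in each of the 3 UVB comparisons. Of all 13105 genes, 219 were then called in WT rats, 300 in P1.hMR rats and 240 for the averaged response. With 1 rat left out, the number of the 10 genes called was 2 to 3 in WT, 3 to 4 in P1.hMR and 3 to 3 for the averaged response. It was 0 to 0 in the genotype and interaction comparisons. Under median-of-ratios scaling 5 of the 45 pairs of genes passed for co-variation, against 0; the cause was not tested.

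Called changes lost were Awat2 under quantile normalization (-0.40 in WT, -0.36 in P1.hMR and -0.38 averaged) and without UVB P1.hMR rat 5 (-0.48), Dgat2 in P1.hMR rats under median-of-ratios scaling (-0.499) and without UVB P1.hMR rat 1 (-0.48), and Dgat2l6 in WT rats without UVB WT rat 3 (1.02). Changes of sign arose only in values that were not called. Lpin1 turned to 0.0058 (UVB in WT) and 0.0028 (averaged) under quantile normalization, and its interaction to 0.054 with sample weights and 0.0078 with the replicate block. Awat2 under UVB between genotypes turned to 0.034 under quantile normalization, 0.0012 under median-of-ratios scaling and 0.034 with the replicate block. Dgat1 without UVB between genotypes turned to -0.014 with sample weights and -0.029 with the replicate block; the cause was not tested.

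Leaving out 1 rat gave, for UVB in WT rats, Far2 -0.26 to 0.0068, Gpam -0.0094 to 0.11, Agpat2 -0.018 to 0.20 and Lpin1 -0.12 to 0.14. For UVB in P1.hMR rats it gave Far2 -0.073 to 0.026, Agpat2 -0.014 to 0.063 and Lpin1 -0.070 to 0.049, and for the average Lpin1 -0.077 to 0.057. Between genotypes without UVB it gave Far1 -0.12 to 0.014, Dgat1 -0.032 to 0.072, Dgat2l6 -0.20 to 0.22 and Lpin1 -0.026 to 0.24, and under UVB Awat2 -0.064 to 0.018 and Far2 -0.19 to 0.044. For the interaction it gave Far2 -0.035 to 0.23, Agpat2 -0.17 to 0.044 and Lpin1 -0.17 to 0.092.

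For same-numbered rats of different groups, deviations from the group means correlated between -0.19 and 0.24. Rats with different numbers were not compared in this way, so whether the numbers mark a pairing was not tested. With the replicate block 3 of the 10 genes were called in WT, 4 in P1.hMR and 3 for the averaged response, and 0 in the others, as without it. The scalings moved the median of all genes by at most 0.022 on the log2 scale.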
